A study of Mus musculus with 16 samples.

Results

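The enzymes that metabolise foreign chemicals were followed in mouse epidermis as 4 gene families: the cytochrome P450 genes (Cyp), the glutathione S-transferases (Gst), the UDP-glucuronosyltransferases (Ugt) and the sulfotransferases (Sult). Members were chosen by symbol: protein-coding genes named as Cyp with a number and a letter, as Gst of the alpha, mu, pi, theta, kappa or omega class, or as numbered Ugt or Sult genes. Cyp1a1, Cyp1b1, Cyp51, Cyp26b1 and Cyp4f39 were left out, and at least 10 counts over the 16 libraries were required. The rule itself used no comparison between groups, but it was set with earlier results of these data known. Of 159 genes with such symbols, 72 were members, among 22155 genes tested. The gene just inside the count limit was Cyp24a1, with 11 counts in all, and Cyp2a4 and Cyp26a1, with 9 counts each, lay just outside it.

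Cytochrome P450 enzymes add oxygen to lipophilic molecules, using electrons passed on by the reductase Por, and the product is then joined to glutathione, glucuronic acid or sulfate by the other families so that it can be exported. In liver, many of these genes are induced through sensors such as the aryl hydrocarbon receptor (AhR) and NRF2. In skin the same families also handle the tissue's own lipids, among them sterols, vitamin D, retinoids and arachidonic acid products.

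The RNA was taken from epidermal cells of the footpad of female C57/B6J mice (purchased animals, with no transgene named). From 5 wk of age the mice ate a purified diet for 3 wk, either as such (SYNTH in the labels, called AhR-poor here because it holds few AhR agonists) or with indole-3-carbinol (I3C), a plant compound whose products activate AhR. They then received vehicle (PBS) or 50 μg of the protease allergen papain in the footpad, and cells were collected 6 hr later, after the epidermis was lifted off with dispase and dead cells were removed. Each of the 4 groups (AhR-poor or I3C diet, with vehicle or papain) had 4 libraries, described in the paper as biological replicates with the single animal as the unit, though the labels name no mouse. Mice on the same diet shared cages, so diet and cage cannot be told apart.

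The libraries held 22500821 to 51844375 counts (median 37177795), and 3 counts, taken as the floor of detection in a library, corresponded to 0.0579 to 0.133 CPM (counts scaled to a common library total, in the usual unit). The labelled cell type was checked: 9 keratinocyte markers, keratins included, summed to between 38217 and 63628 CPM in every library. Of 5 hepatocyte markers, 4 had fewer than 10 counts over all libraries, and Ttr, Serpina1a and Fgb had none. RNA of dermal fibroblasts, endothelial cells, melanocytes, macrophages and neutrophils differed between the groups, and the values are given beside the results they accompany. The summed Langerhans cell markers also differed between the diets, without a call for any single marker. In bulk RNA, fewer cells of a type and less RNA per cell cannot be told apart.

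The families differed in how many of their genes were detected. Together, 72 of 159 genes reached 10 counts, beside 22155 of 50600 genes of all kinds in the whole series. Almost the whole Gst family was measured, 20 of 21 genes, against 23 of 59 genes of the drug-handling families Cyp1 to Cyp3, 18 of 36 other Cyp genes, 6 of 22 Ugt genes and 5 of 21 Sult genes. Averaged over the 16 libraries, 24 members exceeded 10 CPM, 21 lay between 1 and 10 CPM, 20 between 0.1 and 1 CPM and 7 below 0.1 CPM.

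Levels of different genes were compared as CPM per kb of exon. Gsto1, an omega-class transferase that reduces dehydroascorbate, ranked first at 102.6 CPM per kb and made up 18.8% of the summed level of all 72 members. Gsta4, which conjugates the lipid aldehyde hydroxynonenal, and Gstm1 followed at 55.8 and 55.6 CPM per kb. Their order turned with the injection. With vehicle Gstm1 exceeded Gsta4 in 8 of 8 libraries, at group means of 71.9 against 6.71 CPM per kb under the I3C diet and 74.7 against 6.78 under the AhR-poor diet. With papain Gsta4 exceeded Gstm1 in 8 of 8, at 126.6 against 31.8 and 82.9 against 43.9 CPM per kb, and it lay above Gsto1 in 3 of those 8 libraries.

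Among the P450 genes, the keratinocyte arachidonate epoxygenase Cyp2b19 (31.9 CPM per kb), Cyp2b10 (29.8 CPM per kb), the fatty acid hydroxylase Cyp4b1 (27.7 CPM per kb) and Cyp2j6 (23.4 CPM per kb) led. Cyp2b19 exceeded Cyp2b10 in 8 of 8 vehicle libraries, at group means of 25.6 against 19.3 CPM per kb (I3C) and 37.9 against 25.1 (AhR-poor). It lay below Cyp2b10 in 8 of 8 papain libraries, at 32.0 against 37.7 and 31.9 against 37.0. The papain order depends on the length used, 4169 and 2112 exonic bases or 2740 and 1916 bases of the longest transcript. By the latter, the Cyp2b19 mean lay above the Cyp2b10 mean in both papain groups. Gsto1 held 31.0% of the Gst level, while the Sult and Ugt families were each dominated by a single gene. Sult2b1, which makes cholesterol sulfate in the upper epidermis, held 81.4% of the Sult level at 20.9 CPM per kb and lay above Sult5a1 (4.07 CPM per kb) in 16 of 16 libraries. Ugt1a1, the bilirubin-conjugating enzyme, held 83.1% of the Ugt level at 7.85 CPM per kb and lay above Ugt1a7c (0.995 CPM per kb) in 16 of 16 libraries. That share is uncertain, since 1311 of the 2224 exonic bases of Ugt1a1 also belong to other Ugt1a genes. Per kb of the longest transcript in place of all exonic bases, Gsto1 stood at 175.7, Cyp2b19 at 48.5 and Sult2b1 at 44.4 CPM per kb, the latter moving from rank 10 to rank 6 among all members, and the first gene of each family stayed first.

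**Figure D1:**
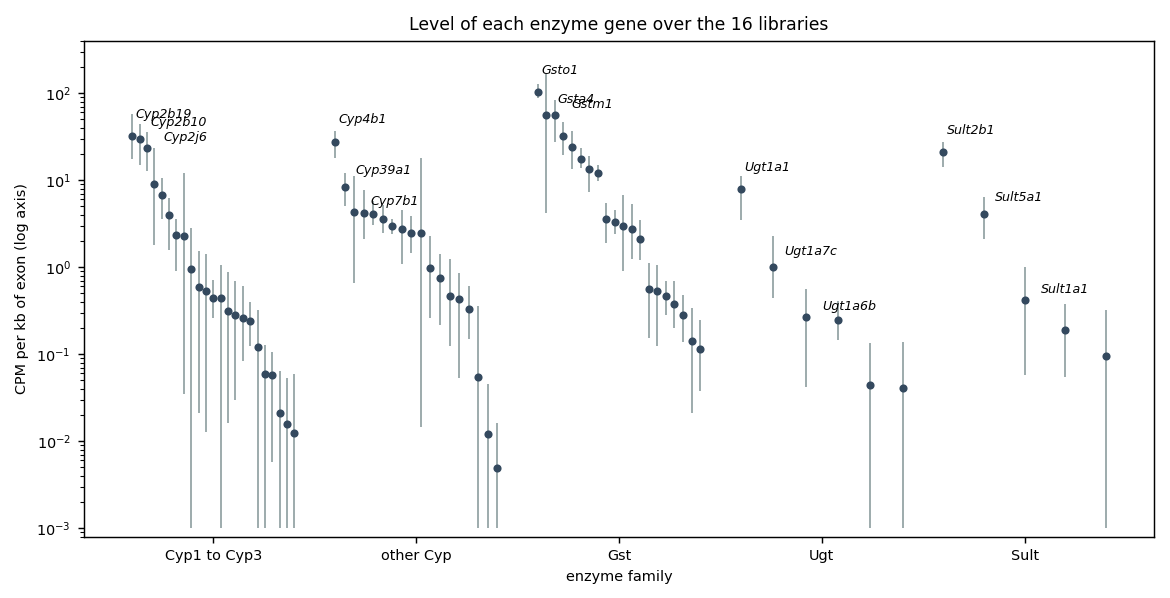
Mean level of each of the 72 enzyme genes over the 16 libraries, in CPM per kb of exon on a log axis, by family, with a vertical line from the lowest to the highest library (values below 0.001 are drawn at 0.001). Gsto1 stands highest at 102.6 CPM per kb, and Sult2b1 and Ugt1a1 stand apart from the rest of their families. The split of reads among the Ugt1a genes, which share exons, is uncertain.

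Papain moved P450 and Gst genes in both directions, whereas the Ugt genes called were lower and the Sult gene called was higher. A gene was called at an adjusted p below 0.01 (edgeR's quasi-likelihood test, Benjamini-Hochberg over all genes tested) and a log2 fold change beyond 1 in either direction. Under the AhR-poor diet 9 of 72 members rose and 9 fell, where 6.04% of all genes tested were called higher and 2.42% lower. Under the I3C diet 9 rose and 15 fell, against 3.69% of all genes called higher and 5.29% lower. The shares of members were 12.5% higher and 12.5% lower under the AhR-poor diet, and 12.5% higher and 20.8% lower under the I3C diet. The median log2 fold change of the members was -0.18 and -0.54, beside -0.0044 and -0.036 over all genes tested. By family, under the AhR-poor and I3C diets, 5 and 5 P450 genes rose and 4 and 5 fell, 3 and 3 Gst genes rose and 3 and 6 fell, 0 Ugt genes rose and 2 and 4 fell, and 1 and 1 Sult gene rose and 0 fell. The call was shared by both diets for 7 members that rose and 9 that fell.

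Gsta4 (chr9:78182774-78209349, plus strand, GRCm38) rose most among the 24 members averaging over 10 CPM. With vehicle it had 8.01, 5.66, 9.82 and 10.5 CPM under the I3C diet and 7.57, 8.79, 12.7 and 5.26 CPM under the AhR-poor diet. With papain it had 100.9, 213, 178 and 150 CPM, and 105.9, 82.2, 120.7 and 111.03 CPM. No papain library overlapped a vehicle library, and the log2 fold change was 4.24 ± 0.30 (SE; edgeR adjusted p = 1.1e-07) under the I3C diet and 3.61 ± 0.29 (adjusted p = 8.0e-07) under the AhR-poor diet.

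Its neighbour Gsta1 (chr9:78230656-78242684) had 0.867 to 1.36 CPM and 0.953 to 1.71 CPM with vehicle, and 4.36 to 6.51 CPM and 2.58 to 5.11 CPM with papain, under the I3C and AhR-poor diets. Its log2 fold change was 2.26 ± 0.24 under the I3C diet and 1.43 ± 0.23 under the AhR-poor diet. The assignment of its reads is uncertain, since 81.8% of the 100-base windows of its longest transcript also occur in transcripts of Gsta2, Gm10639 or Gm3776. Gsta2, with 35.0% of its windows shared, went the other way without passing the fold limit, at -0.70 ± 0.15 (I3C) and -0.82 ± 0.15 (AhR-poor). Gsta3, which lies on chromosome 1, fell with papain under the I3C diet, from 2.73 ± 0.36 to 0.882 ± 0.21 CPM (SD, n = 4 each), a log2 fold change of -1.62 ± 0.24. Under the AhR-poor diet its value was -0.70 ± 0.22 (adjusted p = 0.019).

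Upstream sequences of these genes are shown because the neighbours Gsta1 and Gsta2, which share transcript sequence, gave papain values of opposite sign. Each is the 250 bases before the start site in the RefSeq promoter table (GRCm38.p6), 5′ to 3′ on the gene's own strand. By the GENCODE annotation the last 13 bases of the Gsta1 window and the last 23 of the Gsta2 window, which hold its capitals, are exonic, and the Gsta2 window lies inside the gene's annotated span, since another transcript starts further upstream. Capitals mark TNGCGTG, the letters of an AhR response element, in Gsta2, and TGACNNNGC, the letters of an antioxidant response element bound by NRF2, in Gsta3 and in Cyp4f18, a P450 gene described further on.
Gsta1: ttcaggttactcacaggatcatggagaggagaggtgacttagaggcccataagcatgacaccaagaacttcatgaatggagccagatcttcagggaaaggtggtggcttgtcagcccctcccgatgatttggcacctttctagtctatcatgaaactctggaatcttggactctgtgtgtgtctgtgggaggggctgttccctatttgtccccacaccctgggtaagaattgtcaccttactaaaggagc
Gsta2: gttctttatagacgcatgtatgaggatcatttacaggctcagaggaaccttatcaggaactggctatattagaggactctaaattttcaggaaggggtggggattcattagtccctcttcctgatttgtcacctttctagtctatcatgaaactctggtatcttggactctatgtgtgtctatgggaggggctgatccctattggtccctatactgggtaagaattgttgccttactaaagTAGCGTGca
Gsta3: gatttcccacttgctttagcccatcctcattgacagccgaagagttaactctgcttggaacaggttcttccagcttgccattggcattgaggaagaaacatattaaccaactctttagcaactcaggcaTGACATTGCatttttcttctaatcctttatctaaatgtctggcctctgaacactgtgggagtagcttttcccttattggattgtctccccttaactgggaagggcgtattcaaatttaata
Cyp4f18: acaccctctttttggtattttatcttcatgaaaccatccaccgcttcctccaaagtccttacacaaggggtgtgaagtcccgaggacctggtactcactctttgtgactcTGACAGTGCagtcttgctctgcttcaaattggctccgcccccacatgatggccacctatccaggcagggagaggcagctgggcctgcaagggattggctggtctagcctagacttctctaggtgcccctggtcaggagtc
The windows lie at chr9:78230419-78230668 (plus strand) for Gsta1, chr9:78347146-78347395 (minus strand) for Gsta2, chr1:21240335-21240584 (plus strand) for Gsta3 and chr8:72009627-72009876 (minus strand) for Cyp4f18. The Gsta1 and Gsta2 windows were identical at 184 of 261 columns of a global alignment (70.5%). Neither response element matched in Gsta1.

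Over the 57 members found in that table, searched from 250 bases before to 50 bases after the start site on both strands, TNGCGTG was present in 2 (Gsta2 and Ugt1a5; 3.51%), against 5.84% of 27025 genes. Its core GCGTG, which every TNGCGTG match also holds, was present in 18 members (31.6%), against 35.2% of all genes. TGACNNNGC was present in 6 members (Cyp2j6, Cyp4f18, Cyp8b1, Gsta3, Gstm5 and Gstm7; 10.5%), against 14.0% of all genes. These matches are descriptions of letters in a window.

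The mu-class genes, glutathione transferases that lie within 149 kb on chromosome 3, did not move together. Gstm6 rose, with 2.49 to 3.65 and 2.90 to 4.42 CPM with vehicle and 5.71 to 10.6 and 5.76 to 8.10 CPM with papain (I3C and AhR-poor), at log2 fold changes of 1.47 ± 0.20 and 1.01 ± 0.20. The call under the AhR-poor diet was lost without any 1 of 4 libraries (AhR-poor vehicle T100 or T103, papain T107 or T112), at log2 fold changes of 0.94 to 0.98. The adjacent Gstm7, described here after its values were seen, fell on both diets, by 1.92 ± 0.30 and 1.29 ± 0.27 on the log2 scale.

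Gstm1, the most abundant of the class, fell under the I3C diet from 109.5, 105.3, 107.9 and 100.8 CPM to 56.1, 40.8, 47.1 and 43.6 CPM, a log2 fold change of -1.17 ± 0.11 (adjusted p = 8.4e-08). Under the AhR-poor diet it went from 123.8, 115.8, 114.01 and 86.2 CPM to 63.7, 68.5, 59.0 and 67.7 CPM, at -0.76 ± 0.10, short of the fold limit though the groups did not overlap. Gstm2 gave the same pattern of calls, at -1.05 ± 0.12 and -0.72 ± 0.12. Gstm3, Gstm4 and Gstm5 were called in neither diet.

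The theta-class genes Gstt3 and Gstt2 on chromosome 10 fell on both diets. Gstt3 went from 16.02 to 19.1 CPM down to 7.31 to 11.01 CPM under the I3C diet and from 18.2 to 20.7 down to 8.61 to 10.1 CPM under the AhR-poor diet, at -1.07 ± 0.12 and -1.05 ± 0.12. Gstt2 stood at the fold limit under the AhR-poor diet (-1.003 ± 0.24, adjusted p = 0.0029), and that call was lost on leaving out any of 12 single libraries. Gsto1, Gstk1 and the pi-class gene Gstp1 were not called in any comparison. Over the whole Gst family 3 genes rose and 3 fell under the AhR-poor diet, and 3 rose and 6 fell under the I3C diet. The summed CPM of the 20 Gst genes stayed between 466 and 581 in all libraries, with group means of 558 ± 15 and 547 ± 27 (I3C, vehicle and papain) and 536 ± 50 and 527 ± 32 (AhR-poor).

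Among the P450 genes Cyp7b1 and Cyp27b1 rose on both diets and Cyp39a1 and Cyp46a1 fell on both. Cyp7b1, which hydroxylates oxysterols and steroids, had 2.21, 3.14, 2.31 and 1.59 CPM with vehicle and 13.4, 24.3, 21.3 and 18.7 CPM with papain under the I3C diet, and 1.42, 1.88, 2.57 and 2.09 against 15.7, 11.7, 9.997 and 17.5 CPM under the AhR-poor diet. The groups were far apart on both diets, with log2 fold changes of 3.06 ± 0.24 and 2.78 ± 0.24. Cyp27b1, which makes the active form of vitamin D, rose from 0.663 to 1.005 CPM up to 3.00 to 4.71 CPM under the I3C diet (2.21 ± 0.26) and from 0.741 to 1.39 CPM up to 3.02 to 5.93 CPM under the AhR-poor diet (1.98 ± 0.25). Cyp24a1, which breaks vitamin D down, was at the floor in every group.

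The oxysterol hydroxylase Cyp39a1 fell on both diets, from 34.5 to 36.9 CPM down to 16.1 to 19.5 CPM (I3C, -1.02 ± 0.08) and from 29.5 to 36.6 CPM down to 15.5 to 17.3 CPM (AhR-poor, -1.08 ± 0.08). The cholesterol hydroxylase Cyp46a1, best known from brain, fell from 1.74 to 2.78 CPM down to 0.174 to 0.545 CPM (I3C, -2.77 ± 0.30) and from 1.85 to 2.53 CPM down to 0.492 to 0.952 CPM (AhR-poor, -1.66 ± 0.27). Cyp8b1, a sterol hydroxylase of bile acid synthesis, and Cyp4f37 rose under the I3C diet at 1.85 ± 0.44 and 1.59 ± 0.28, and under the AhR-poor diet gave 1.15 ± 0.44 (adjusted p = 0.051) and 0.73 ± 0.26 (adjusted p = 0.036). Among other members that act on sterols or vitamin D, Cyp11a1, described further on, was called higher with papain under the AhR-poor diet alone. Cyp27a1, Cyp17a1 and the vitamin D hydroxylase Cyp2r1 were not called with papain. Under the I3C and AhR-poor diets Cyp27a1 gave -0.86 ± 0.23 and -0.17 ± 0.22, and Cyp17a1 -0.57 ± 0.23 and -0.66 ± 0.23. Cyp2r1 gave 0.07 ± 0.26 and -0.06 ± 0.26.

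Cyp2w1, an extrahepatic P450, fell most among the 24 members averaging over 10 CPM. It had 31.8, 24.3, 35.4 and 14.6 CPM with vehicle against 5.89, 4.36, 4.57 and 3.28 CPM with papain under the I3C diet, and 16.6, 24.6, 20.6 and 20.9 against 2.73, 4.53, 4.28 and 3.40 CPM under the AhR-poor diet. Every papain library lay below every vehicle library, at log2 fold changes of -2.55 ± 0.25 and -2.47 ± 0.26. Cyp2j9 fell by 1.49 ± 0.13 and 1.31 ± 0.13 on the log2 scale. Its neighbour Cyp2j6 gave -0.98 ± 0.12 on both diets, just inside the fold limit, with 101.6 to 129 CPM in the vehicle libraries and 46.3 to 68.3 CPM in the papain libraries. It passed that limit without any 1 of 4 libraries under the I3C diet (-1.10 to -1.0005) and any 1 of 2 under the AhR-poor diet (-1.04 and -1.01). Cyp2j11, in the same cluster and singled out after its values were seen, had 0 counts in 7 of 8 vehicle libraries and 0.321 to 0.609 CPM in the papain libraries. It was at least 5.35-fold higher under the I3C diet and at least 5.99-fold higher under the AhR-poor diet, against the floor of 3 counts in each library. Cyp2j11 reached the count limit through the papain libraries alone, so its membership is not separate from this rise.

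**Figure D2:**
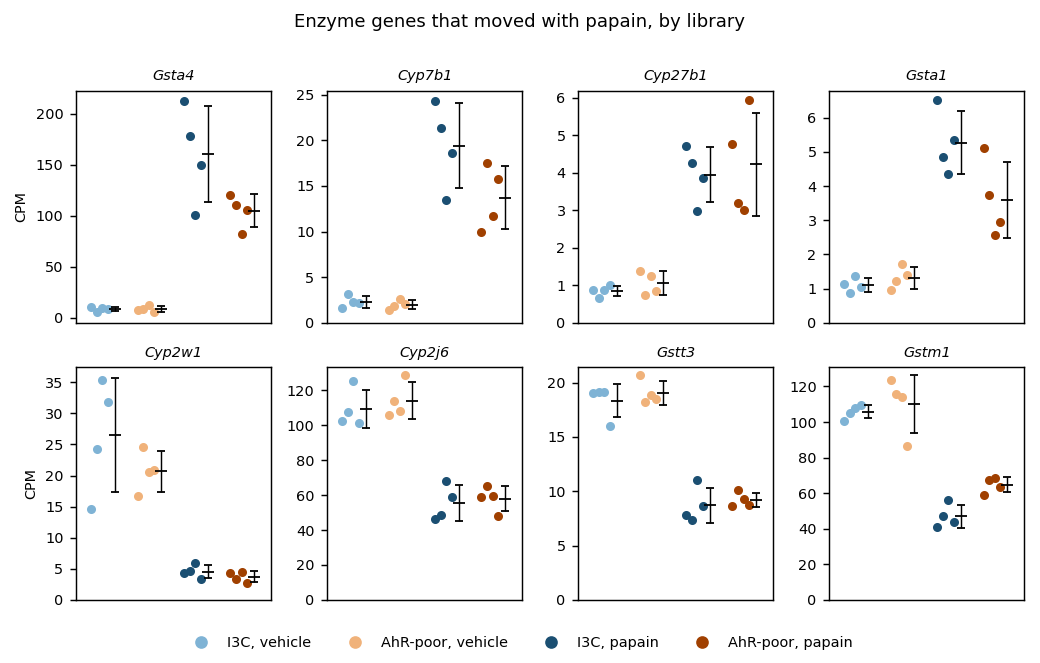
CPM of 8 enzyme genes in each library, by group, with the mean and SD (n = 4) beside the points. Gsta4, Cyp7b1, Cyp27b1 and Gsta1 were higher in every papain library than in any vehicle library, and Cyp2w1, Cyp2j6, Gstt3 and Gstm1 were lower.

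None of the abundant P450 genes Cyp2b19, Cyp2b10 and Cyp4b1 or the dominant conjugating genes Sult2b1 and Ugt1a1 was called with papain. Cyp2b19 had 73.8 to 237 CPM over all libraries, and its papain response was 0.32 ± 0.30 (I3C) and -0.25 ± 0.30 (AhR-poor). Cyp4b1 gave -0.02 ± 0.15 and 0.02 ± 0.15. Sult2b1 gave 0.17 ± 0.16 and -0.20 ± 0.16. Cyp2b10 went from 31.4 to 51.3 CPM up to 51.1 to 92.9 CPM under the I3C diet, at 0.96 ± 0.19 (adjusted p = 0.00073), inside the fold limit, and passed it without vehicle library T109 or T110 or papain library T113 (1.05 to 1.12).

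The Ugt1a genes share their last exons, and 35.1% to 71.5% of the 100-base windows in the longest transcripts of the 5 Ugt1a members also occur in other Ugt1a transcripts, so the split of reads among them is uncertain. Ugt1a1 gave 0.67 ± 0.20 (I3C) and -0.07 ± 0.19 (AhR-poor). Ugt1a6b fell on both diets (-1.61 ± 0.37 and -1.49 ± 0.39). Ugt1a7c fell under the I3C diet, from 5.13 to 9.52 CPM down to 1.90 to 4.01 CPM (-1.17 ± 0.28), and gave -0.11 ± 0.28 under the AhR-poor diet. The call under the I3C diet was lost without vehicle library T110 (log2 fold change -0.96, adjusted p = 0.012). Ugt2b1 and Ugt1a5, singled out after their values were seen, fell to the floor. The count limit was reached by Ugt2b1 through the vehicle libraries alone, so its membership is not separate from its fall. Ugt2b1 was at least 3.05-fold lower with papain under the I3C diet and at least 1.99-fold lower under the AhR-poor diet, and Ugt1a5 at least 2.37-fold lower under the I3C diet, although 1 vehicle library of Ugt1a5, at 0.0287 CPM, lay within the papain range of 0 to 0.0321 CPM. The remaining gene called on both diets was Sult4a1, a sulfotransferase of brain, which rose at 1.68 ± 0.33 and 1.18 ± 0.32 from below 0.35 CPM.

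Calls on a single diet were Cyp11a1 and Cyp4f18 (higher, AhR-poor diet), Cyp4f37 and Cyp8b1 (higher, I3C diet), and Cyp2s1, Gsta3, Gstm1, Gstm2, Ugt1a5 and Ugt1a7c (lower, I3C diet). A call on a single diet is not a difference between diets. The interaction of diet and papain, which tests that difference, called 0 of 72 members in either direction with edgeR, and DESeq2 also called 0. Over all genes tested 0.0181% were called higher and 0% lower. At an unadjusted p below 0.05, 12 members passed, 4 of them with an estimate above 1 and 1 with an estimate below -1, and the smallest adjusted p was 0.14, for Cyp2s1.

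Cyp2s1, a P450 of epithelia that AhR is known to induce, had 15.2, 13.8, 15.4 and 14.6 CPM with vehicle and 7.01, 4.52, 4.42 and 4.75 CPM with papain under the I3C diet, and 17.6, 17.2, 14.8 and 16.3 against 10.2, 8.10, 8.22 and 10.5 CPM under the AhR-poor diet. It dropped in all papain libraries, to lower levels under the I3C diet. The log2 fold changes were -1.50 ± 0.14 and -0.83 ± 0.13, and the difference between them was 0.67 ± 0.19.

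Markers of other cells also moved with papain. Neutrophil markers rose, 7 of 7 under the AhR-poor diet and 4 of 7 under the I3C diet. Their sums went from 9.39 to 11.6 up to 87.5 to 568 CPM and from 1.64 to 4.74 up to 50.9 to 92.3 CPM. The 4 called under the I3C diet were S100a8, S100a9, Cxcr2 and Mmp9. In the I3C papain group Ly6g had 0 CPM, and Retnlg and Csf3r averaged 0.089 and 0.74 CPM. Of 7 monocyte and macrophage markers 5 and 2 rose. Under the AhR-poor diet 10 of 12 dermal fibroblast markers, 1 of 7 endothelial and 1 of 5 adipocyte markers rose, and under the I3C diet 0 of each rose and 1 fibroblast marker fell. The 6 sweat gland markers summed to 34.8 to 38.5 CPM with vehicle and 19.8 to 25.8 CPM with papain under the I3C diet, and to 29.7 to 40.4 and 20.2 to 23.5 CPM under the AhR-poor diet, with 1 called lower on each. Of 9 keratinocyte markers 1 was called lower on each diet, and no Langerhans cell or melanocyte marker was called. The part of these cells in the papain results was not tested.

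**Figure D3:**
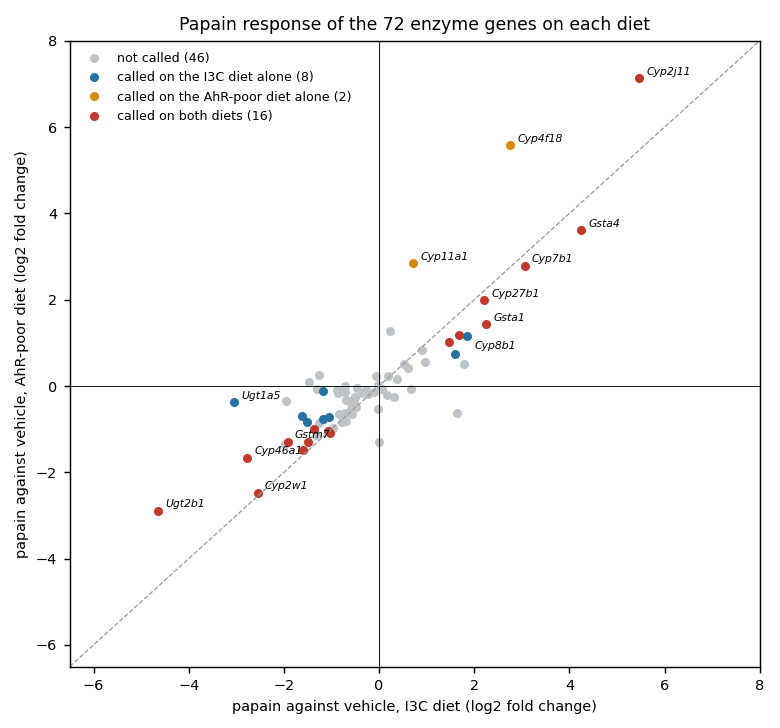
Log2 fold change of papain against vehicle under the I3C diet (horizontal axis) and under the AhR-poor diet (vertical axis) for the 72 enzyme genes, coloured by where the change was called, with the line of equal response dashed. The 16 genes called on both diets lie in the 2 quadrants of equal sign, and Cyp4f18 and Cyp11a1 lie above the dashed line.

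Diet separated a set of mostly low-expressed P450 genes, each higher under the AhR-poor than the I3C diet. With vehicle, 7 of 72 members were higher under the AhR-poor diet (9.72%) and 0 were lower, where 1.59% of all genes tested were called higher and 0% lower. At an unadjusted p below 0.05 with the same fold limit 11 members were higher and 0 lower, and DESeq2 called 8 higher and 0 lower. All 7 belonged to the families Cyp1 to Cyp3: Cyp2b23, Cyp2f2, Cyp2g1, Cyp2j12, Cyp2j7, Cyp2j8 and Cyp3a57. The number fell to 3 without the I3C vehicle library T110 and to 4 without T108. With papain, 13 members were higher (18.1%) and 0 lower, against 7.15% and 0.0993% of all genes, and DESeq2 called 15 higher and 0 lower. They were the same 7 genes with Cyp11a1, Cyp27a1, Cyp2d22, Cyp4f18, Cyp4v3 and Gsta3. With edgeR no Ugt or Sult gene was called by diet, and DESeq2 added Sult1a1 and Cyp46a1 after papain and Cyp4f37 with vehicle.

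These 7 genes were expressed at low levels. Summed, they reached 1.09 to 3.27 CPM in the I3C vehicle libraries and 9.45 to 41.3 CPM in the AhR-poor vehicle libraries, and 0.353 to 1.68 CPM and 10.3 to 19.9 CPM with papain. The genes were summed because they were called, so the gap between the diets follows from their choice. Cyp2g1, a P450 best known from olfactory mucosa, made up 54.7% of the mean sum in the AhR-poor vehicle group, 35% in the AhR-poor papain group, and 30.4% and 20.6% in the I3C vehicle and papain groups. It had 0.230, 1.17, 0.381 and 1.02 CPM against 13.3, 25.9, 3.09 and 12.2 CPM with vehicle (4.27 ± 0.69, adjusted p = 0.0027), and 0.341, 0.0962, 0.171 and 0.0746 against 3.15, 9.54, 2.51 and 5.87 CPM with papain (4.90 ± 0.82). The vehicle call was lost without I3C library T108, T110 or T111 (adjusted p up to 0.016, log2 fold change 3.98 to 4.48) and when only the 8 vehicle libraries were fitted (adjusted p = 0.011).

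Cyp2f2, a P450 known from the club cells of the airway, had 0.0574, 0.586, 0.136 and 0.420 CPM against 3.51, 5.67, 1.78 and 3.38 CPM with vehicle, and 0.317, 0, 0.0285 and 0.0497 against 3.15, 5.44, 3.51 and 3.13 CPM with papain. The log2 fold changes were 3.55 ± 0.59 and 5.12 ± 0.68, and without I3C vehicle library T110 the first was 3.29 with an adjusted p of 0.013. Cyp2j12 had 0.127 to 0.354 CPM against 1.19 to 2.73 CPM with vehicle, and 0.0249 to 0.244 against 1.51 to 2.29 CPM with papain, at 3.04 ± 0.42 and 4.28 ± 0.48. The other 4 genes were named after their values were seen, and Cyp2j7 and Cyp2b23 gave smaller estimates than the genes above. Cyp3a57 gave 3.46 ± 0.44 and 4.17 ± 0.47, Cyp2j7 2.28 ± 0.46 and 2.49 ± 0.50, and Cyp2b23 1.82 ± 0.36 and 2.02 ± 0.43. Cyp2j8 gave 2.47 ± 0.39 with vehicle and was at least 8.94-fold higher with papain. All 7 exceeded 0.2 CPM in every AhR-poor library.

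Cyp4f18, a leukotriene hydroxylase known from neutrophils, separated the diets after papain. It had 0.0287 to 0.178 CPM and 0.295 to 0.470 CPM in the vehicle libraries of the I3C and AhR-poor diets, and after papain 1.29, 0.513, 0.314 and 0.174 CPM under the I3C diet against 17.7, 33.5, 14.9 and 3.21 CPM under the AhR-poor diet. The diet difference with papain was 4.89 ± 0.67 (adjusted p = 0.00015) and the papain response under the AhR-poor diet 5.58 ± 0.71. Under the I3C diet the papain response was 2.76 ± 1.03 (adjusted p = 0.052; DESeq2 adjusted p = 0.0022), and the interaction, at 2.82 ± 1.57, had an adjusted p of 0.46. Cyp11a1, which starts steroid synthesis from cholesterol, had at most 1 count in each I3C library and 0.381 to 1.73 CPM in the AhR-poor papain libraries, at least 10.8-fold higher. Cyp11a1 reached the count limit through the AhR-poor libraries alone, so its membership is not separate from this difference.

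**Figure D4:**
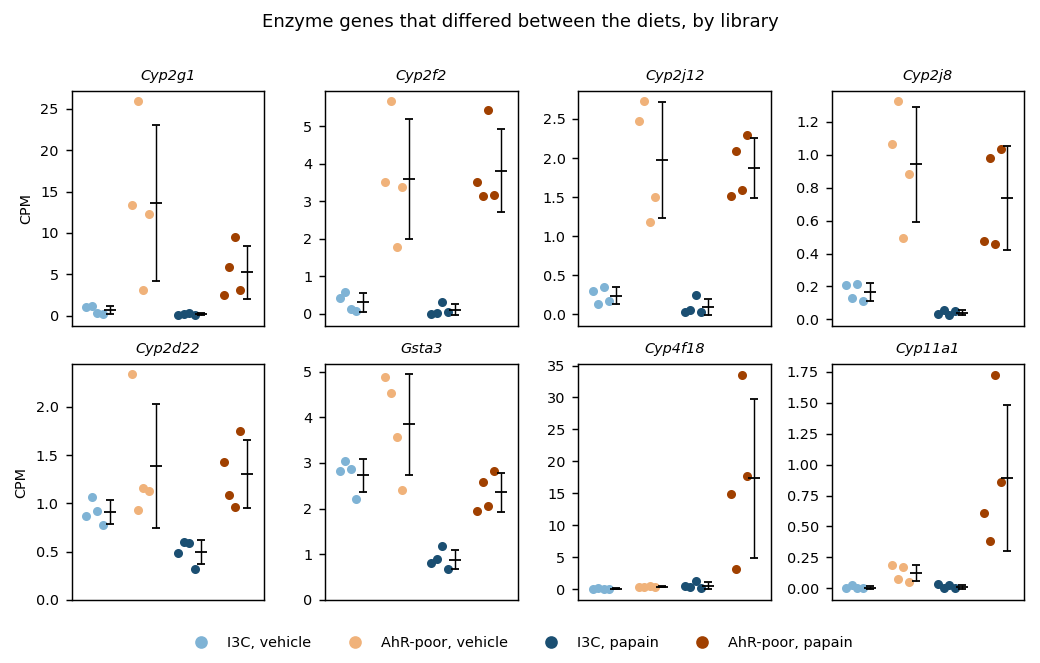
CPM of 8 enzyme genes in each library, by group, with the mean and SD (n = 4) beside the points. Cyp2g1, Cyp2f2, Cyp2j12 and Cyp2j8 were higher under the AhR-poor diet with both injections, and Cyp4f18 and Cyp11a1 stood out in the AhR-poor papain libraries.

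The remaining diet calls after papain were smaller. Gsta3 had 0.671 to 1.17 CPM under the I3C diet and 1.95 to 2.83 CPM under the AhR-poor diet (1.41 ± 0.24). Cyp2d22 had 0.323 to 0.599 and 0.967 to 1.75 CPM (1.38 ± 0.31), a call lost without any 1 of 4 papain libraries (I3C T113 or T115, AhR-poor T104 or T107; adjusted p up to 0.020). The mitochondrial sterol hydroxylase Cyp27a1 and the fatty acid hydroxylase Cyp4v3 gave 1.17 ± 0.23 and 1.09 ± 0.25.

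Markers of other cells moved with the diet. Of 12 dermal fibroblast markers 10 were called higher under the AhR-poor diet with vehicle and 10 with papain (median log2 fold changes 4.08 and 6.47). Postn and Fbln1 were the others. The list summed to 214 to 422 CPM and 335 to 566 CPM with vehicle and 191 to 347 CPM and 664 to 1108 CPM with papain under the I3C and AhR-poor diets. Of these sums, Postn alone averaged 283 and 269 CPM with vehicle and 235 and 334 CPM with papain. All 7 endothelial markers were higher with both injections, summing to 0.976 to 3.44 CPM and 14.7 to 38.3 CPM with vehicle and to 1.14 to 2.58 CPM and 24.5 to 62.8 CPM with papain. Of 7 monocyte and macrophage markers 4 were higher with vehicle and 7 with papain, summing to 18.7 to 28.0 and 50.02 to 60.3 CPM, and 11.5 to 35.0 and 80.9 to 248 CPM. None of these defining markers was at 0 throughout.

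Adipocyte markers were near the floor, with Adipoq and Plin1 below 10 counts in all and sums of at most 5.65 CPM, and 1 of the 5 tested was higher with vehicle and 3 with papain. Of 4 melanocyte markers 1 and 4 were higher, with sums of at most 8.96 CPM. No Langerhans cell marker of 5 was called by diet, though their sums did not overlap. They reached 315 to 557 and 720 to 818 CPM with vehicle, and 337 to 656 and 776 to 945 CPM with papain. Cd207, Cd74 and H2-Aa gave 1.28 to 1.62 with vehicle (edgeR adjusted p = 0.017 to 0.036) and 1.17 to 1.27 with papain (0.011 to 0.018). Epcam and Mfge8 gave 0.16 to 0.76. The 6 sweat gland markers had no diet call, with sums of 34.8 to 38.5 and 29.7 to 40.4 CPM with vehicle. No keratinocyte marker of 9 was called by diet. Of 7 neutrophil markers none was called by diet with vehicle, and 3 were higher under the AhR-poor diet after papain, Ly6g having counts in that group alone. The part of these cells in the diet results was not tested.

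Neighbours within tandem clusters moved in different ways. In the Cyp2j cluster of chromosome 4 (6 members within 492 kb), Cyp2j12, Cyp2j7 and Cyp2j8 were higher under the AhR-poor diet with both injections, Cyp2j11 rose with papain, and Cyp2j9 fell with it. Cyp2j6, the most abundant of them, differed between the diets by 0.06 ± 0.12 on the log2 scale with either injection. In the cluster of 8 members on chromosome 7 the abundant Cyp2b10 and Cyp2b19 were not called by diet (0.37 ± 0.19 and 0.56 ± 0.30 with vehicle), while Cyp2b23, Cyp2g1 and Cyp2f2 were. Cyp2b23 and Cyp2b19 share 0.239% and 0.189% of their 100-base transcript windows. Exons overlap those of another gene on the opposite strand over 274 of 2025 exonic bases in Cyp2f2, 260 of 4938 in Cyp2s1, 181 of 1855 in Cyp4f18, 321 of 3950 in Sult2b1 and 922 of 2224 in Ugt1a1. The other Ugt1a members overlap such a gene over 394 bases each. Gstt3, Cyp11a1 and Cyp4v3 share exonic bases with another gene on their own strand. Some reads of all these genes are therefore uncertain.

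**Figure D5:**
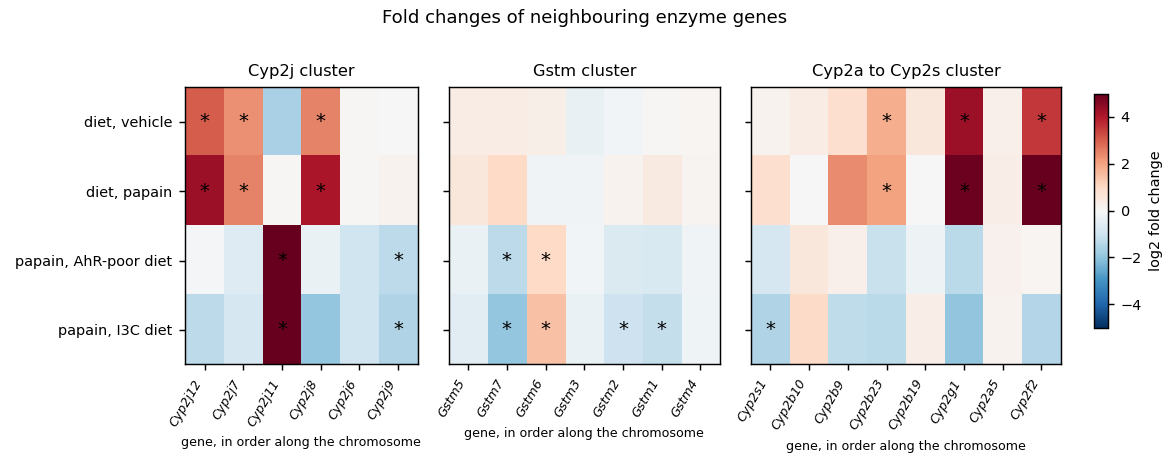
Log2 fold change of each member in 3 gene clusters, in the order of the genes along the chromosome, for the diet (AhR-poor against I3C) with vehicle and with papain and for papain against vehicle on each diet, with an asterisk where the change was called and colours saturating at 5. Neighbours differ in colour within each cluster: Cyp2j11 rises with papain between genes that do not, and Gstm6 rises beside Gstm7, which falls.

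Genes known as members of the AhR battery were taken as a list of 9, of which 8 were measured (Cyp2a5, Cyp2s1, Gsta1, Gsta2, Sult1a1, Ugt1a6a, Ugt1a6b and Ugt1a7c) and Cyp1a2 had too few counts. With edgeR none was called by diet, with vehicle or with papain, where 1.59% and 7.15% of all genes tested were called higher. Their median log2 fold changes were 0.14 and 0.20. The largest estimates were those of Sult1a1, which sulfates phenols, at 1.30 ± 0.40 (adjusted p = 0.11) and 1.59 ± 0.43 (adjusted p = 0.013). DESeq2 called Sult1a1 higher under the AhR-poor diet after papain (1.62, adjusted p = 0.0027), and edgeR did so without I3C vehicle library T109 or I3C papain library T106 (adjusted p up to 0.0095). With papain, Gsta1 rose and Ugt1a6b fell on both diets, and Cyp2s1 and Ugt1a7c fell under the I3C diet. Of 14 members of families known as NRF2 targets, Gsta3 alone was called by diet, after papain, a share close to the 7.15% of all genes. Papain raised Gsta1 and Gsta4 on both diets and lowered 1 of the 14 under the AhR-poor diet (Ugt1a6b) and 4 under the I3C diet (Gsta3, Gstm1, Gstm2 and Ugt1a6b). Of all genes tested, papain raised 6.04% and lowered 2.42% under the AhR-poor diet, and raised 3.69% and lowered 5.29% under the I3C diet.

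Among the genes kept out of the family, Cyp1a1 was higher under the AhR-poor diet after papain (0.235 ± 0.16 against 1.67 ± 0.42 CPM, log2 fold change 2.79) and fell with papain under the I3C diet (-2.62), and Cyp1b1 was higher under the AhR-poor diet after papain (1.48). Of 10 AhR pathway genes none was called by diet with vehicle, where 1.59% of all genes tested were called higher. Ahr, Ahrr and Tiparp were called nowhere. The quinone reductase Nqo1 rose with papain on both diets, at 2.32 ± 0.22 (I3C) and 2.35 ± 0.22 (AhR-poor). Aldh3a1, an aldehyde dehydrogenase, fell under the I3C diet (-1.68) and gave -0.82 under the AhR-poor diet, inside the fold limit.

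Of the 6 electron partners of P450 enzymes, Por rose with papain under the I3C diet, from 59.0 ± 2.3 to 125 ± 25 CPM (1.09), and gave 0.86 under the AhR-poor diet, and none was called by diet. Of 22 other oxidising or hydrolysing enzymes measured, 2 rose and 2 fell with papain under the AhR-poor diet and 2 rose and 6 fell under the I3C diet. The aldo-keto reductase Akr1b8 rose on both diets (1.77 and 1.94), and the flavin monooxygenase Fmo1 (-1.68 and -2.91) and the aldehyde oxidase Aox1 (-1.53 and -2.31) fell on both. By diet 1 was higher with vehicle, the carboxylesterase Ces1d (3.18), and 6 after papain (Fmo1, Fmo2, Ces1d, Adh1, Aldh3b1 and Akr1c18). Of all genes tested, 1.59% were called higher by diet with vehicle and 7.15% after papain. Papain raised 6.04% and lowered 2.42% of all genes under the AhR-poor diet, and raised 3.69% and lowered 5.29% under the I3C diet.

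Of 17 other conjugation genes, 2 rose with papain under the AhR-poor diet, the glutathione reductase Gsr (1.07) and the nicotinamide methyltransferase Nnmt (3.46). Under the I3C diet 2 fell, the microsomal transferases Mgst2 (-1.01) and Mgst3 (-1.05). On the other diet these genes had the same sign inside the fold limit. Gsr and Nnmt gave 0.49 and 0.71 under the I3C diet, and Mgst2 and Mgst3 gave -0.80 and -0.71 under the AhR-poor diet. By diet 1 was higher after papain, Nnmt (5.87). Of 9 exporters, 2 rose and 2 fell with papain under the AhR-poor diet and 1 rose and 1 fell under the I3C diet. The breast cancer resistance protein gene Abcg2 rose on both diets (1.34 on I3C, 1.37 on AhR-poor) and Abcc6 fell on both (-4.23 and -2.54), and Abcc6 was also the exporter called by diet, after papain (1.54). Of the 4 sensors measured (Nr1i3, Rxra, Nfe2l2 and Keap1) none was called in any comparison, and Nr1i2, the pregnane X receptor gene, had 0 counts in every library. The shares of all genes tested given above are the background for these lists too.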

How the data were processed

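Epidermal RNA of 16 libraries, 4 for each combination of diet and injection, was sequenced (TruSeq Stranded mRNA, paired 100-base reads). Per the labels and the paper, the authors aligned reads with STAR to mm10. The deposited values are unnormalized counts per Ensembl gene, and the counting tool, annotation and strand setting are not given in the sources used here. Without a stated strand setting, overlapping genes on opposite strands cannot be told apart.

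Symbols, positions and exon lengths came from GENCODE M21 (GRCm38), which matched 50376 of 50600 rows, with 224 unmatched. Groups came from the labels alone. The 22155 genes reaching 10 counts summed over libraries were fitted with edgeR 4.0.16 under R 4.3.3 (TMM factors, means of 4 groups, all 16 libraries, robust quasi-likelihood F test), and calls followed the limits of the study, 0.01 for the adjusted p (Benjamini-Hochberg) and 1 for the size of the log2 fold change. The SE is the log2 fold change divided by the square root of F. CPM used TMM-scaled library totals, and SD is over 4 libraries. The pipeline was tested on simulated counts. Alternatives were DESeq2 1.42.0, other scalings, filters and thresholds, and leaving out each library. A fold against a group with at most 3 counts in every library is a lower bound against 3 counts per library, and covers counting error only. The sequencing unit of each library is not stated, so no batch term was fitted.

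Members and lists were chosen with earlier results of these data known. Named genes were up to 6 largest called rises and falls per comparison with at least 1 CPM on average, the 3 highest per kb of exon in each family, and the AhR battery. Others are marked as chosen after their values were seen, as are Gstm2, Cyp27a1, Cyp17a1, Cyp2r1, Cyp4v3, Cyp11a1, Cyp8b1, Sult4a1 and the single members given beside their neighbours. Transcript windows of 100 bases were compared across all GENCODE M21 transcripts. Of the 72 members, 57 were matched in the RefSeq promoter table. Promoters were aligned globally (match 1, mismatch -1, gap opening -3).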

Additional observations from a re-analysis of the deposited data

Results flagged for a closer look

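Within groups of 4 libraries, 136 combinations of a named member and a group were examined for a library far from the others, with Dixon's ratio (the gap to the nearest library over the whole range), and 10 exceeded the limit. Chance flags about 1 in 20 such groups.

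On the I3C diet with papain, library T113 was low for Cyp2b10 (51.1 CPM against 86.8 to 92.9 CPM, ratio 0.886), Cyp2b19 (81.5 against 143 to 159.99 CPM, ratio 0.8291) and Ugt1a1 (13.2 against 19.7 to 20.7 CPM, ratio 0.885), and library T106 was high for Cyp2s1 (7.01 against 4.42 to 4.75 CPM, ratio 0.847). On the AhR-poor diet with papain, T112 was high for Cyp39a1 (17.3 against 15.5 to 15.7 CPM, ratio 0.924), T107 was low for Cyp4b1 (40.3 against 61.2 to 64.7 CPM, ratio 0.881), and T104 was low for Ugt1a1 (15.5 against 20.3 to 21.4 CPM, ratio 0.839). With vehicle, T100 was low for Gsta2 on the AhR-poor diet (17.1 against 21.4 to 22.2 CPM, ratio 0.862), and on the I3C diet T108 was low for Gstt3 (16.02 against 19.0 to 19.1 CPM, ratio 0.963) and T111 for Ugt1a6b (0.690 against 1.22 to 1.35 CPM, ratio 0.850).

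Without T106, the papain response of Cyp2j12 on the I3C diet passed the test (log2 fold change -2.56, adjusted p = 0.0038), as did the diet difference of Cyp2s1 after papain (1.03, adjusted p = 7.2e-06, against 0.84 with all libraries). Without T113, Cyp46a1 was higher on the AhR-poor diet after papain (1.35, adjusted p = 0.0081).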

How the results depend on the processing

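No direction reversed under any alternative run. Requiring at least 10 counts in every library left 43 of the 72 members to test. Each of the 7 genes called by diet with vehicle fell below 10 counts in some I3C library, so this filter removed them before testing. It called 0 higher by diet with vehicle, 4 higher by diet with papain, and 5 higher and 4 lower with papain under the AhR-poor diet. Dropping the fold limit, members lower with papain numbered 17 on the AhR-poor diet and 23 on the I3C diet. Leaving out each library in turn, members higher by diet with vehicle ranged from 3 to 8, with papain from 11 to 15, members higher with papain from 7 to 9 (AhR-poor) and 8 to 10 (I3C), and members lower with papain from 6 to 9 and 13 to 17. Other scalings, other count filters, DESeq2, an adjusted p below 0.05 and a fit of only the 8 libraries compared kept every count of members within 1.5 times. Members at the fold limit changed sides: Gstt2 on the AhR-poor diet under RLE factors, library sizes alone, filterByExpr, the filter in every library and DESeq2 (log2 fold change -0.996 to -0.976), Cyp39a1 on the I3C diet without papain library T115 (-0.99), and Ugt1a6b on the AhR-poor diet without any 1 of 5 libraries (adjusted p up to 0.026). Cyp2j6 passed the fold limit on the I3C diet with library sizes alone (-1.02). The cause was not tested. For these named genes and counts, 4113 of the recomputed values kept their call, 36 became called, 38 lost it and 4 moved. Diet differences of members under 1 CPM rest on few counts in the I3C libraries. No paired analysis was possible because the groups share no replicate numbers.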
